A study of Homo sapiens with 24 samples.

Results

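Collagen chains are the polypeptides whose triple helices make up the fibrils, networks and filaments of the extracellular matrix, and they are described here in SET2, a human megakaryoblastic leukaemia line established from a myeloproliferative neoplasm, before and after prolonged growth in JAK inhibitors. A gene was taken as a member where its symbol had the form COL, digits, A, digits, and where its normalised count was at least 10 in at least 2 of 23 libraries. The library left out of that rule, CYT387 persistent replicate 2, carried much RNA of stromal and squamous genes. Of the 25082 genes in the table, 43 had such a symbol, and 34 met the rule. Those 34 are 11 fibrillar, 5 basement membrane network, 4 beaded filament, 1 short-chain network (COL8A2), 1 anchoring fibril (COL7A1), 7 fibril-associated, 3 transmembrane and 2 multiplexin chains. COL11A1, COL15A1 and COL24A1 were picked for their gains in some of the lines, with earlier results of these data known. Their levels are therefore described without a test, and the other 31 chains were tested.

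Fibrillar chains assemble into the cross-striated fibrils of skin, bone and cartilage. Fibril-associated chains sit on the surface of those fibrils, type IV chains form the sheet beneath epithelia and endothelia, and the multiplexins XV and XVIII join such sheets to the matrix around them. Megakaryocytes are known to make type IV and some other collagens, and the fibrosis of the marrow in myeloproliferative neoplasms is a deposition of collagen mostly by stromal cells.

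The study compared 8 groups of 3 libraries of poly(A) RNA, all from SET2, which carries an activating mutation of JAK2. Naive cells were never selected. The 4 persistent lines, named BMS911543, CYT387, INC424 and SAR302503 after their inhibitors of JAK kinases, had grown out in the inhibitor and were kept in it. In the short exposures, cells received DMSO for 4 h, INC424 for 4 h or INC424 for 48 h, and no vehicle group at 48 h was among the samples. All cells were grown with 20% fetal calf serum. Each persistent line is 1 line per inhibitor, and the labels leave unsaid whether the replicates of a group came from separate cultures. The p-values therefore reflect only the spread between these libraries, which may be technical.

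Library depth ran from 21770721 to 36160750 reads, and the 34 chains together took 0.0395% to 0.127% of the reads in the 23 libraries and 0.442% in CYT387 replicate 2. Megakaryocyte marker RNA was high in every library: ITGA2B, the platelet integrin subunit, was between 48762 and 118546 normalised counts in the 23 libraries, although PF4 had a median of 0. The summed stromal markers lay between 381 and 1662 in the 23 libraries, with FBN1 at 50.2 to 1349, TAGLN at 142 to 363 and a median of 0 for DCN and POSTN, and reached 15644 in CYT387 replicate 2. The summed squamous markers were 126176 in CYT387 replicate 2, 30425 in SAR302503 line replicate 3, 8004 in INC424 line replicate 2, 6110 in INC424 48 h replicate 3 and 5520 in SAR302503 line replicate 2, and at most 2398 elsewhere. Unless stated otherwise, CYT387 replicate 2 is left out of every value below and the CYT387 line has 2 libraries.

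COL18A1, the source of the fragment endostatin, was the most abundant chain per kilobase of exon in every group. It stood at 1515 normalised counts per kb in naive cells, followed by COL25A1 at 258, COL2A1 at 237 and COL23A1 at 177. The summed count of the 34 chains was 20468 ± 2893 (SD, n = 3) in naive cells, and COL18A1 made up 63.1% of it. The sum was 20513 ± 2506 (n = 3) in the BMS911543 line, 25933 ± 382 (n = 2) in the CYT387 line, 19934 ± 1664 (n = 3) in the INC424 line and 15312 ± 4880 (n = 3) in the SAR302503 line. The highest sum belonged to INC424 at 48 h, at 34286 ± 870 (n = 3), against 15465 ± 1816 (n = 3) with DMSO and 19466 ± 1872 (n = 3) with INC424 at 4 h. Of the 34 chains, 15 reached 10 in all 23 libraries, 27 had a group mean of at least 50, and 20 differed over 10-fold between their highest and lowest group or were at 0 in the lowest. Their highest group was the CYT387 line for 11 chains, the SAR302503 line for 9, INC424 at 48 h for 7, the INC424 line for 3, the BMS911543 line for 2, and DMSO and naive cells for 1 each.

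**Figure D1:**
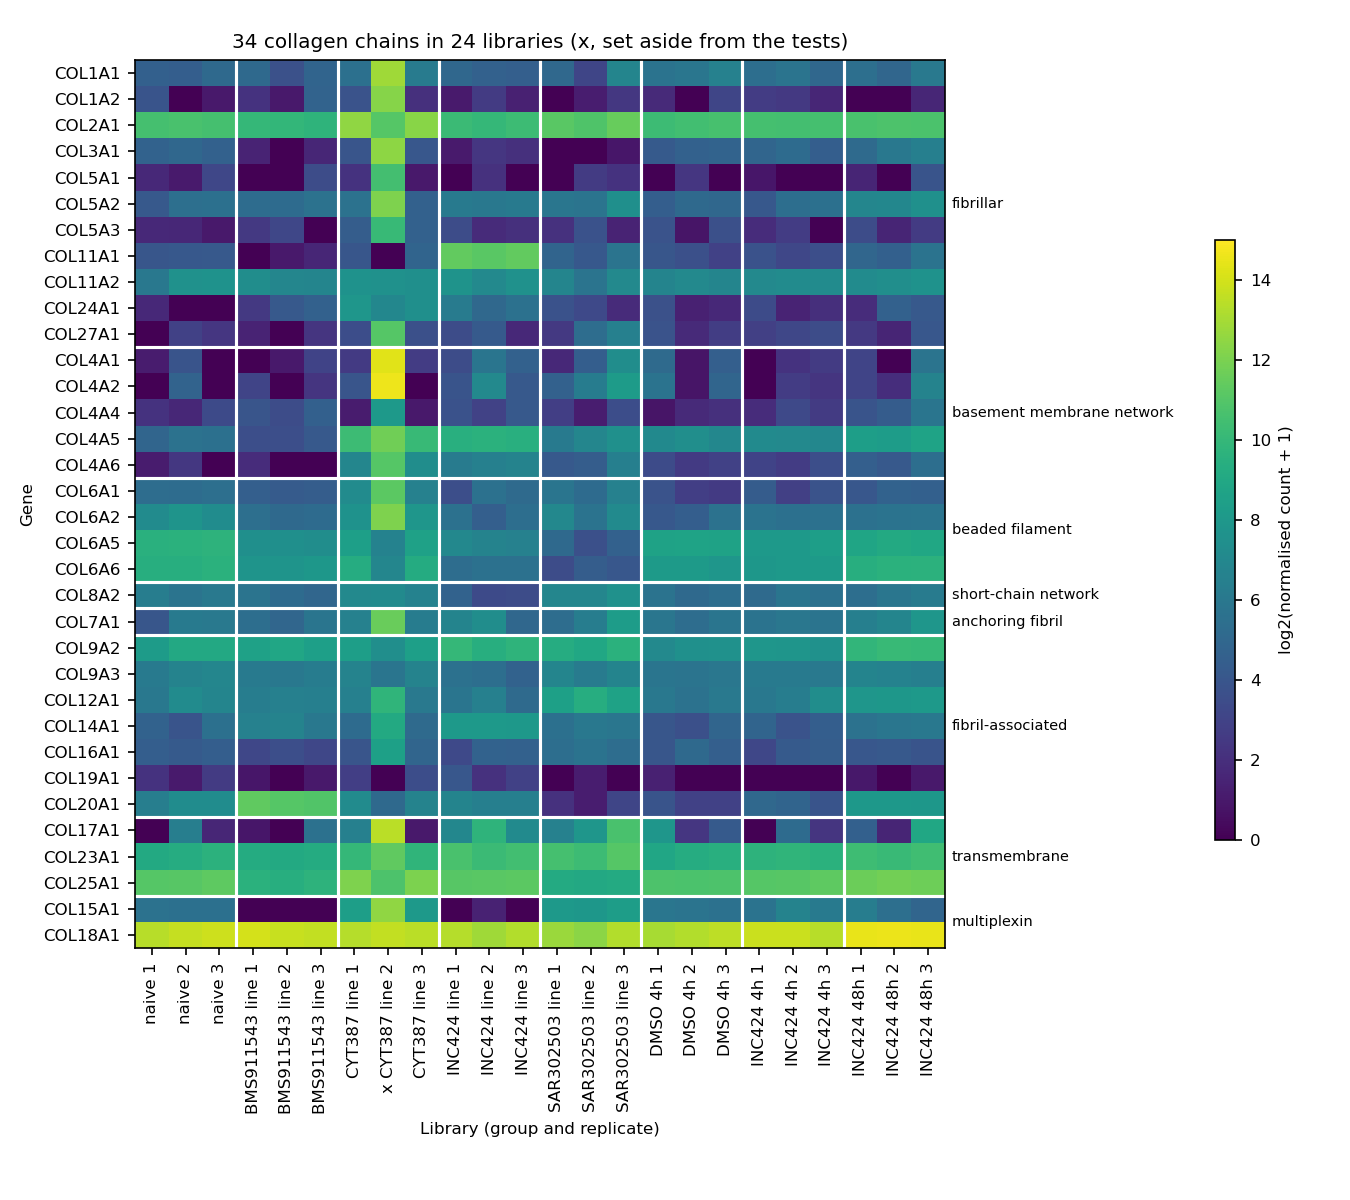
Heat map of log2(normalised count + 1) for the 34 chains (rows, grouped by collagen family) in the 24 libraries (columns, 3 per group; white lines separate groups and families; x marks CYT387 replicate 2). COL18A1 is bright in every column, COL11A1 only in the 3 INC424 line columns, and COL15A1 is dark in the BMS911543 and INC424 line columns.

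COL11A1, a minor fibrillar chain of cartilage that sets fibril diameter, was high in a single line. The 3 libraries of the INC424 line held 2646, 2329 and 2694 normalised counts. Naive cells held 15.2, 16.2 and 17.3, and the BMS911543 line 0, 1.01 and 2.03. The remaining groups ranged from 6.33 to 52.8. The mean of the INC424 line was 157 times that of naive cells, a log2 difference of 7.21 (SE 0.45). Against the BMS911543 line, which had 3 reads in all, the INC424 line was 2615-fold higher, with a 95% counting interval of 894 to 12682 that covers counting error only. In bulk RNA a few cells with much of a transcript and many cells with a little cannot be told apart. COL11A1 was at 0 in CYT387 replicate 2, the library rich in stromal and squamous RNA, where COL15A1 was 5800 and COL24A1 122. Short exposure to INC424 gave no such level, with 12.6, 8.12 and 11.0 at 4 h and 30.0, 23.3 and 51.1 at 48 h.

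COL15A1, a multiplexin of vessel and muscle basement membranes, fell into 3 levels. In naive cells it was 49.2, 46.4 and 45.9, the DMSO libraries held 57.8, 53.4 and 46.7, and the means were 74.4 with INC424 at 4 h and 50.8 at 48 h. In the CYT387 line it was 335 and 279, and in the SAR302503 line 276, 243 and 321. The BMS911543 line had no read in any of its 3 libraries, and the INC424 line had 0, 1.70 and 0. The mean was 6.52 times that of naive cells in the CYT387 line and 5.94 times in the SAR302503 line. Against 3 reads over the BMS911543 group, the naive mean was at least 48.2-fold higher, the SAR302503 line at least 292-fold and the CYT387 line at least 313-fold. Against the 2 reads of the INC424 line, the naive mean was 78.1-fold higher (95% counting interval 21.2 to 652). So the same gene was higher than naive in 2 lines and near the floor of detection in the other 2. An exon of COL15A1 overlaps AL136084.3 on the opposite strand, and the strand used in counting is not given in the sources used here.

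COL24A1, a fibrillar chain of developing bone and cornea, was close to 0 in naive cells, with 2.34, 0 and 0, a total of 2 reads. The CYT387 line held 236 and 177, and the INC424 line 74.8, 33.2 and 46.7. The BMS911543 line held 4.56, 17.1 and 24.4, and the SAR302503 line 12.7, 8.89 and 2.64. Over naive cells the CYT387 line was 283-fold higher (95% counting interval 77.8 to 2346) and the INC424 line 68.2-fold (18.6 to 568). The ratio was 20.7-fold (5.40 to 176) in the BMS911543 line and 10.4-fold (2.54 to 91.4) in the SAR302503 line. These intervals pool the reads of a group and leave out the spread between libraries, and both naive reads came from replicate 1. The short exposures ranged from 1.64 to 24.3, so the SAR302503 and BMS911543 lines overlapped with the DMSO libraries while the CYT387 and INC424 lines did not.

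The promoters of COL11A1 and COL15A1 are shown because these are 2 of the chains described for levels that differed between lines. Each is the 250 bases before and 50 bases after a RefSeq start, on GRCh38.p14, read 5′ to 3′ on the gene's strand, with CG pairs in capitals. The COL11A1 sequence lies at chr1:103108473-103108772 on the minus strand and the COL15A1 sequence at chr9:98943657-98943956 on the plus strand.
COL11A1: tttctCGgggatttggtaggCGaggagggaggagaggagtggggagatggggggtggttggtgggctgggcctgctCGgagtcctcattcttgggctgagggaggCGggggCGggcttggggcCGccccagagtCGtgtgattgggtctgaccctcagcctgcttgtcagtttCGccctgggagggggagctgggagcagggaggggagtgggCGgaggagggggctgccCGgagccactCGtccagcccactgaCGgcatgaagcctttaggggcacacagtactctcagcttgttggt
COL15A1: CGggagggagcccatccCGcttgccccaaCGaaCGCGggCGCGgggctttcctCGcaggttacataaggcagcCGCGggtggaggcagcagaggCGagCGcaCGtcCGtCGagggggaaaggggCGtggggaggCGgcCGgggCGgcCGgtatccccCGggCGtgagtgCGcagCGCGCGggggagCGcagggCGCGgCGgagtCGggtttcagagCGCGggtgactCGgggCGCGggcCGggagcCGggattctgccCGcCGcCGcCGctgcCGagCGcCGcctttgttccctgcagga
The COL11A1 window holds 12 CG pairs, a number reached by 53.1% of RefSeq promoters of this length. The COL15A1 window holds 45, reached by 3.48%. Across the members, 24 of 34 matched a promoter in the RefSeq table. The palindrome TTCNNNGAA, the core bound by STAT factors, was in the windows of 2 of these 24 (COL11A2 and COL7A1) and in 7.66% of all 35116 promoters.

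**Figure D2:**
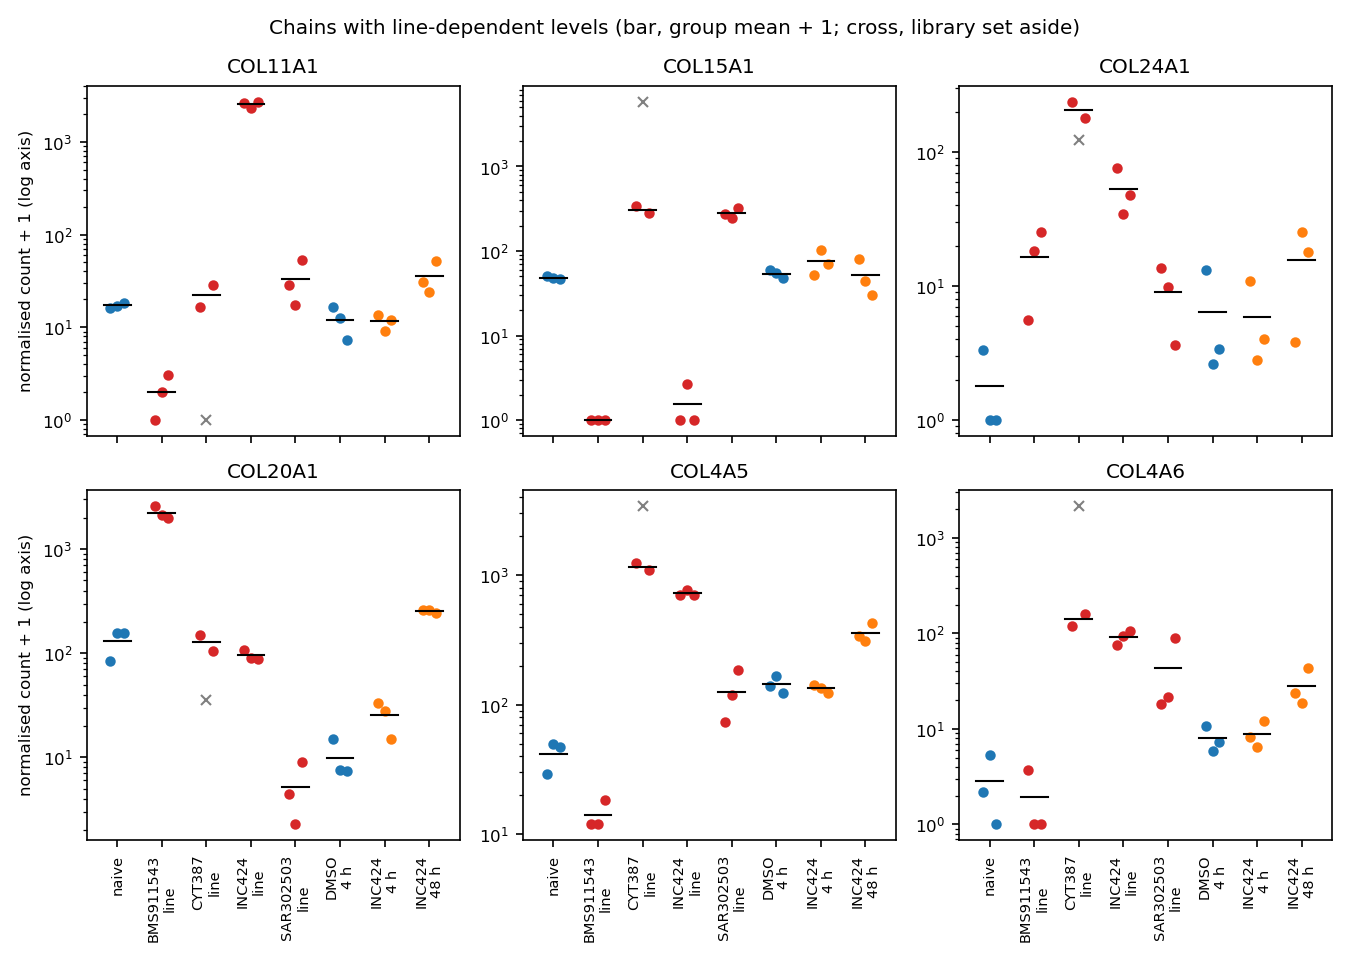
Normalised count + 1 (log axis) of 6 chains in every library of the 8 groups; points are libraries, bars group means and crosses CYT387 replicate 2. COL11A1 stands out in the INC424 line (2329 to 2694), COL20A1 in the BMS911543 line (1973 to 2587), and COL4A5 with COL4A6 in the CYT387 and INC424 lines.

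COL20A1, a fibril-associated chain, spanned 530-fold between its highest and lowest group means, more than any other tested chain with reads in every group. The BMS911543 line held 2587, 2145 and 1973, against 83.2, 154 and 155 in naive cells, and the groups did not overlap. It rose 17.1-fold in the ratio of means (log2 difference 4.13, SE 0.39, adjusted p = 1.1e-08, limma). In the SAR302503 line it fell, to 3.45, 1.27 and 7.93 (log2 difference -4.82, SE 0.39, adjusted p = 1.2e-09). The CYT387 line, at 149 and 104, and the INC424 line, at 107, 88.6 and 87.2, did not pass the test against naive cells. The BMS911543 and SAR302503 lines differed by 8.95 on the log2 scale (SE 0.39, adjusted p = 1.6e-14).

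COL4A5 and COL4A6, chains of the type IV networks of kidney and of smooth muscle and skin, lie head to head on the X chromosome and moved together. COL4A5 was 28.1, 48.5 and 45.9 in naive cells, 1230 and 1094 in the CYT387 line and 697, 761 and 706 in the INC424 line. It rose 28.5-fold in the CYT387 line (log2 difference 4.83, SE 0.30, adjusted p = 2.3e-11) and 17.7-fold in the INC424 line (4.15, SE 0.26, adjusted p = 8.9e-12). In the SAR302503 line, at 72.5, 118 and 184, it rose 3.06-fold (adjusted p = 1e-04), although this call was lost when the 2 groups were fitted alone. In the BMS911543 line, at 10.9, 11.1 and 17.3, it fell (log2 difference -1.56, SE 0.26, adjusted p = 5.6e-05).

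COL4A6 was lower than COL4A5 and followed it. Naive cells held 1.17, 4.31 and 0, from 5 reads, the CYT387 line 120 and 159, the INC424 line 73.7, 92.0 and 105, and the SAR302503 line 17.3, 20.3 and 88.9. The log2 differences from naive cells were 5.94 (SE 0.71, adjusted p = 1.4e-06), 5.32 (SE 0.64, adjusted p = 4.7e-07) and 3.86 (SE 0.64, adjusted p = 6.1e-05), in that order. In the BMS911543 line it had 3 reads, 2.74, 0 and 0. The lines in which this pair was highest also had the most RNA of the endothelial list. Its sum was 2482 to 3070 in the CYT387 line and 2612 to 2734 in the INC424 line, against 559 to 624 in naive cells. VWF, which is also on the megakaryocyte list, had a mean of 2602 in the CYT387 line, and KDR had 2070 in the INC424 line. The sum was 856 to 1333 in the BMS911543 line, where COL4A5 fell, and 155 to 250 in the SAR302503 line, where both chains rose. With DMSO, where COL4A5 was above naive cells, it was 300 to 332. Of the endothelial markers, CDH5 was between 35.7 and 201 in the 23 libraries and TEK was at 0 in all of them, and their part in the result was not tested. The summed squamous markers were 2304, 5520 and 30425 in SAR302503 line replicates 1, 2 and 3, the order in which both chains rose there. They were 907 and 272 in the CYT387 line. Both calls in the SAR302503 line held without the 3 libraries highest in squamous RNA, whose part was not tested either.

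Both promoters are shown because this pair moved together, with the bases they share in capitals. COL4A5 is at chrX:108439588-108439887 on the plus strand and COL4A6 at chrX:108439409-108439708 on the minus strand, both 5′ to 3′ from RefSeq on GRCh38.p14.
COL4A5: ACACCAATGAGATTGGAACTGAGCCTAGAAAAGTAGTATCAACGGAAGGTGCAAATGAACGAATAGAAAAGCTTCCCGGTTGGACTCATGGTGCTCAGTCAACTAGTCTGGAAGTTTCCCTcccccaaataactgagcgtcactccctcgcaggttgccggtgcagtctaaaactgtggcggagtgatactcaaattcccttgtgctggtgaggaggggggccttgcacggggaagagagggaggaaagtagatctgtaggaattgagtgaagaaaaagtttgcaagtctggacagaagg
COL4A6: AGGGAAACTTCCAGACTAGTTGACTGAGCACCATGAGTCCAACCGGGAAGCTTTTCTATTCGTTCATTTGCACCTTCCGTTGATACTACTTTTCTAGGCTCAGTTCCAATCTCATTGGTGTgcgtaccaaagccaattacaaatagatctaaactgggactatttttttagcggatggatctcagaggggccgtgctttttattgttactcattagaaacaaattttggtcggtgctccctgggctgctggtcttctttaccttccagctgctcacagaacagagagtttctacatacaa
The 2 start sites are 380 bases apart, and 121 bases belong to both windows, read on opposite strands. COL4A6 has a further start in the RefSeq table, which is not shown.

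Some of the 31 tested chains changed against naive cells in each line. In the BMS911543 line 2 chains rose (6.45%, against 15.6% of all genes tested) and 7 fell (22.6%, against 18.8%). In the CYT387 line 6 rose (19.4%, against 9.53%) and 1 fell (3.23%, against 8.52%). In the INC424 line 6 rose (19.4%, against 15.3%) and 8 fell (25.8%, against 17.0%). In the SAR302503 line 11 rose (35.5%, against 14.1%) and 6 fell (19.4%, against 15.6%). The median log2 difference of the 31 chains was -0.46 in the BMS911543 line, 0.48 in the CYT387 line, 0.05 in the INC424 line and 0.52 in the SAR302503 line, where that of all genes lay between -0.01 and 0.03. All differences are on the log2(count + 1) scale, which understates the change of low genes. With all 24 libraries fitted, 1 chain rose and 7 fell in the BMS911543 line, 9 and 1 in the CYT387 line, 5 and 5 in the INC424 line and 5 and 6 in the SAR302503 line. In the same order, the main fit called 34.3%, 18%, 32.3% and 29.7% of all genes in either direction. The fit with all 24 libraries called 24.1%, 21.9%, 22.1% and 18.9%. Among the calls lost in that fit were COL14A1 in the BMS911543 line, COL25A1 in the CYT387 line and COL3A1 in the INC424 line. Without the 3 libraries highest in squamous RNA as well as CYT387 replicate 2, 6 rose and 7 fell in the SAR302503 line, 3 and 7 in the BMS911543 line, 7 and 1 in the CYT387 line and 5 and 8 in the INC424 line. Of all genes, 33.7%, 39%, 23.9% and 34.5% were called in either direction at that setting, in the same order.

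**Figure D3:**
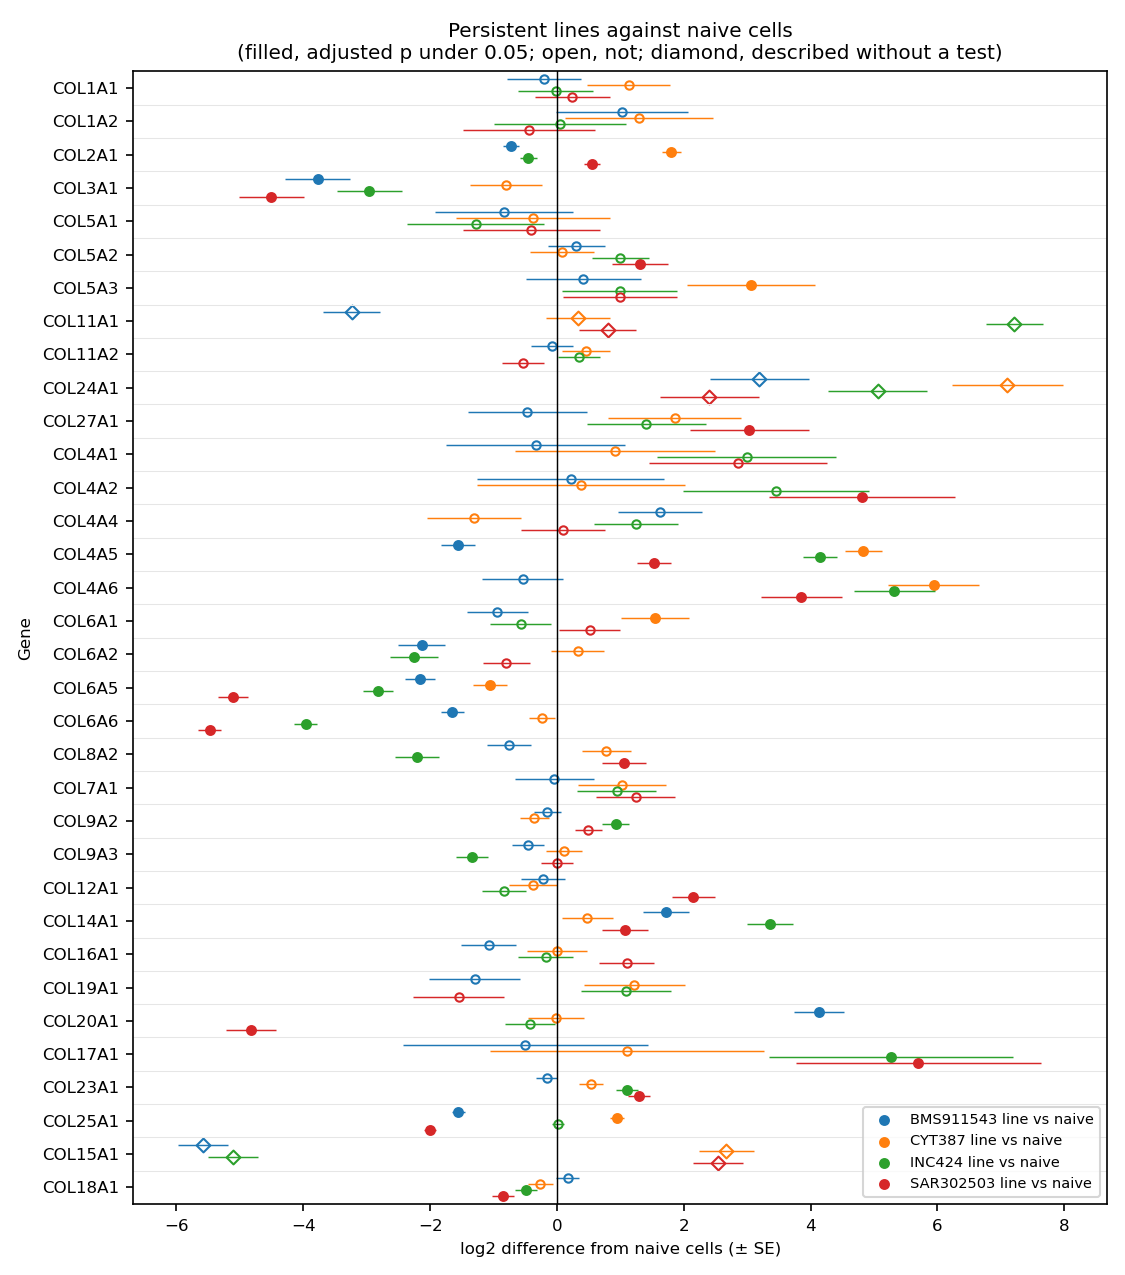
Log2 difference from naive cells (± SE, log2(normalised count + 1) scale) of each chain in the 4 persistent lines; filled points passed the test, open ones did not, and diamonds mark the 3 chains described without a test. COL4A5 lies at -1.56 in the BMS911543 line and 4.83 in the CYT387 line, and COL6A5 lies below 0 in all 4 lines.

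Among fibrillar chains, COL2A1, the main chain of cartilage fibrils, changed in every line but not in one direction. Naive cells held 1520, 1667 and 1543 normalised counts. The CYT387 line held 5874 and 5171 (log2 difference 1.81, SE 0.15, adjusted p = 2.4e-09), and the SAR302503 line 2282, 1858 and 2933 (0.56, SE 0.13, adjusted p = 0.0022). The BMS911543 line fell to 1026, 972 and 869 (-0.72, SE 0.13, adjusted p = 0.00011) and the INC424 line to 1209, 1014 and 1245 (-0.45, SE 0.13, adjusted p = 0.0093). No library of any line overlapped with those of naive cells, though the calls in the INC424 and SAR302503 lines were lost with all 24 libraries. That in the INC424 line was also lost without its replicate 2, and that in the SAR302503 line with the compared groups alone. Among the pairs of lines, 5 of 6 differed for COL2A1, the exception being the BMS911543 and INC424 lines.

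COL3A1, the chain of reticular fibres, was low in naive cells, at 25.8, 31.3 and 24.5, and lower in 3 lines. It fell in the BMS911543 line to 1.82, 0 and 2.03 (adjusted p = 2.6e-06), in the INC424 line to 1.13, 4.26 and 3.17 (adjusted p = 6.6e-05) and in the SAR302503 line to 0, 0 and 0.881 (adjusted p = 2.9e-07). In the CYT387 line, at 14.2 and 15.9, it did not pass the test. COL5A3 rose in the CYT387 line, at 20.1 and 24.4 against 1.02 to 2.34 (adjusted p = 0.037), a call lost without either library of that line or any 1 naive library. COL11A2, a partner of COL11A1 in the type XI trimer, passed in no line and no exposure, with a range of 54.6 to 208 over the 23 libraries, while COL11A1 spanned 0 to 2694. COL1A1, the main chain of bone and scar, ranged from 7.62 to 113 and also passed in no comparison with naive cells, and its partner COL1A2 was at most 26.4. COL5A1 reached 10 in only 2 libraries, at 10.2 and 14.0.

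The chains of beaded filaments form the type VI microfibrils around cells. COL6A5 was 726, 749 and 823 in naive cells, and it fell in all 4 lines. It was 173, 176 and 163 in the BMS911543 line (log2 difference -2.16, SE 0.23, adjusted p = 9.1e-08), 347 and 389 in the CYT387 line (-1.06, SE 0.26, adjusted p = 0.0056), 126, 103 and 95.9 in the INC424 line (-2.82, SE 0.23, adjusted p = 9.9e-10) and 33.4, 11.4 and 24.7 in the SAR302503 line (-5.11, SE 0.23, adjusted p = 4e-14). The fall in the CYT387 line was lost without its replicate 1. With DMSO, COL6A5 was also called below naive cells, at 406, 420 and 397, and that call was lost with all 24 libraries. COL6A6 was 675, 686 and 772 in naive cells. It fell in the BMS911543 line (220, 214 and 243), the INC424 line (40.8, 46.8 and 46.7) and the SAR302503 line (10.4, 20.3 and 15.9), with adjusted p between 2e-16 and 1.3e-07, and was 620 and 590 in the CYT387 line, which did not pass. Both chains were lowest in the SAR302503 line, and it differed from each other line in both.

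COL6A2, which pairs with COL6A1 in the classical type VI trimer, fell in the BMS911543 line to 43.8, 34.2 and 37.6 and in the INC424 line to 46.5, 22.1 and 42.0, from 151, 212 and 157 (adjusted p = 8.1e-05 and 4.1e-05). COL6A1 rose in the CYT387 line, to 147 and 96.7 from 37.7 to 42.8 (log2 difference 1.55, SE 0.54, adjusted p = 0.048). That call was lost without any 1 library of either group and under the replicate block (adjusted p = 0.078). COL6A3, the third chain of that trimer, fell short of the rule, at most 10.3 in the 23 libraries. COL8A2, a short-chain network former of the cornea, fell in the INC424 line to 24.9, 9.37 and 10.3 from 82.0, 53.9 and 65.2 (adjusted p = 2.1e-05) and rose in the SAR302503 line to 117, 118 and 189 (adjusted p = 0.025). The rise was lost without SAR302503 replicate 3 and without naive replicate 2 or 3, without the 3 libraries highest in squamous RNA (adjusted p = 0.087) and with the compared groups alone (adjusted p = 0.074).

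Of the fibril-associated chains, COL14A1, which binds fibril surfaces in tendon and skin, rose in 3 lines. Naive cells held 25.8, 14.0 and 44.8. The INC424 line held 274, 278 and 259 (log2 difference 3.36, SE 0.36, adjusted p = 9.8e-08), and the BMS911543 line 96.7, 103 and 64.0 (1.72, SE 0.36, adjusted p = 0.00068). The SAR302503 line held 44.9, 62.3 and 58.1 (1.07, SE 0.36, adjusted p = 0.029), a call lost without either of 2 naive libraries (1 and 2) or of 2 of its own (2 and 3). It was also lost without the 3 libraries highest in squamous RNA (adjusted p = 0.075), with all 24 libraries (0.30), with a term for libraries run again (0.050, above the threshold) and with the compared groups alone (0.20). COL12A1, a related chain of tension-bearing tissue, rose in the SAR302503 line alone among the lines, to 370, 653 and 393 from 63.3, 150 and 111 (2.15, SE 0.34, adjusted p = 3.8e-05), and that line differed from each of the other 3.

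COL9A2 and COL9A3, chains of the type IX collagen on cartilage fibrils, went apart in the INC424 line. COL9A2 rose to 1009, 667 and 865 from 306, 522 and 529 (adjusted p = 0.0013), and COL9A3 fell to 47.6, 42.6 and 25.4 from 70.3, 104 and 119 (adjusted p = 0.00021). Exons of COL9A3 overlap TCFL5 on the opposite strand. COL16A1, of the same class, ranged from 8.11 to 52.1 and passed in no comparison with naive cells, and COL19A1 was at most 15.9 and reached 10 in 2 libraries.

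Transmembrane collagens are single-pass proteins whose ectodomains can be shed. COL25A1, a neuronal member, was 2073, 2162 and 2520 in naive cells. It rose to 4383 and 4262 in the CYT387 line (log2 difference 0.95, SE 0.11, adjusted p = 7.4e-07) and fell to 775, 685 and 841 in the BMS911543 line (-1.55, SE 0.10, adjusted p = 6.7e-12) and to 579, 531 and 564 in the SAR302503 line (-2.01, SE 0.10, adjusted p = 1.2e-13). The INC424 line, at 2189, 2291 and 2358, lay within the naive range. COL23A1 was 560, 628 and 806 in naive cells and rose in the INC424 line to 1665, 1202 and 1423 (1.11, SE 0.17, adjusted p = 1.8e-05) and in the SAR302503 line to 1553, 1257 and 2126 (1.29, SE 0.17, adjusted p = 3.3e-06).

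COL18A1 was 10638, 13348 and 14754 in naive cells. It fell in the SAR302503 line, to 6741, 5394 and 9779 (log2 difference -0.85, SE 0.18, adjusted p = 0.00072, and 0.055 with the compared groups alone), and in the INC424 line, to 10387, 7472 and 9779 (-0.49, SE 0.18, adjusted p = 0.038), where the call was lost without either of 2 libraries of that line (2 and 3) or of the naive cells (2 and 3). Its exons overlap SLC19A1 on the opposite strand in GENCODE v29. The strand setting is not given, so reads from the bases that the 2 genes share cannot be assigned here. How much of COL18A1 is shared was not measured.

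Between the lines themselves, 23 of the 31 tested chains differed in at least 1 of the 6 pairs, against 61.7% of all genes tested. COL25A1, COL6A5 and COL6A6 differed in all 6 pairs. COL4A5 differed in 5, the exception being the CYT387 and INC424 lines, where the log2 difference was 0.69 (SE 0.30, adjusted p = 0.10). COL8A2 also differed in 5 pairs, and it was 14.9 ± 8.74 (SD, n = 3) in the INC424 line against 142 ± 41.3 (n = 3) in the SAR302503 line (log2 difference -3.26). COL1A1, COL1A2, COL5A1, COL5A2, COL5A3, COL4A1, COL7A1 and COL11A2 differed in no pair. With CYT387 replicate 2 in the fit, 25 chains differed in at least 1 pair.

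Some chains were high in the libraries with squamous RNA. COL17A1, a hemidesmosome protein of basal keratinocytes, was 1632 in SAR302503 line replicate 3, 850 in INC424 line replicate 2 and 490 in INC424 48 h replicate 3, and at most 234 in the other 20 libraries. It rose in the INC424 line (124, 850 and 141, adjusted p = 0.039) and the SAR302503 line (95.6, 233 and 1632, adjusted p = 0.028) against 0, 85.2 and 2.04 in naive cells. Without the 3 libraries highest in squamous RNA, the adjusted p was 0.090 in the INC424 line and 0.078 in the SAR302503 line. The first call was also lost without any 1 of the line's libraries and the second without replicate 3, and both were lost without naive replicate 1 or 3.

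COL4A2, which forms the ordinary type IV heterotrimer with COL4A1, rose in the SAR302503 line (24.2, 78.8 and 298) against 0, 25.9 and 0 (log2 difference 4.82, SE 1.47, adjusted p = 0.015), although the groups overlapped and the call was lost without replicate 3 of that line or without naive replicate 1 or 3. The call was also lost with all 24 libraries, with the compared groups alone and by DESeq2. It held without the 3 libraries highest in squamous RNA. COL4A1 was 2.30, 21.6 and 164 in the same libraries and did not pass (adjusted p = 0.13). COL7A1, which anchors epithelial basement membrane to the dermis, was 314 in SAR302503 line replicate 3, 230 in INC424 48 h replicate 3 and 165 in INC424 line replicate 2, and also passed in no comparison. COL27A1, a fibrillar chain of cartilage, rose in the SAR302503 line (4.61, 39.4 and 91.6, against 0, 6.47 and 4.08, adjusted p = 0.017), as did COL5A2, a partner in type V fibrils (58.7, 54.6 and 179, against 17.6, 44.2 and 45.9, adjusted p = 0.030). The groups of COL27A1 overlapped. Without the 3 libraries the adjusted p was 0.082 for COL27A1 and 0.21 for COL5A2, and both calls were lost without SAR302503 replicate 3 or naive replicate 1, and that of COL27A1 also without SAR302503 replicate 2. The summed squamous markers of these groups were 374 to 979 in naive cells, 1457 to 8004 in the INC424 line and 2304 to 30425 in the SAR302503 line, and their part in these results was not tested.

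**Figure D4:**
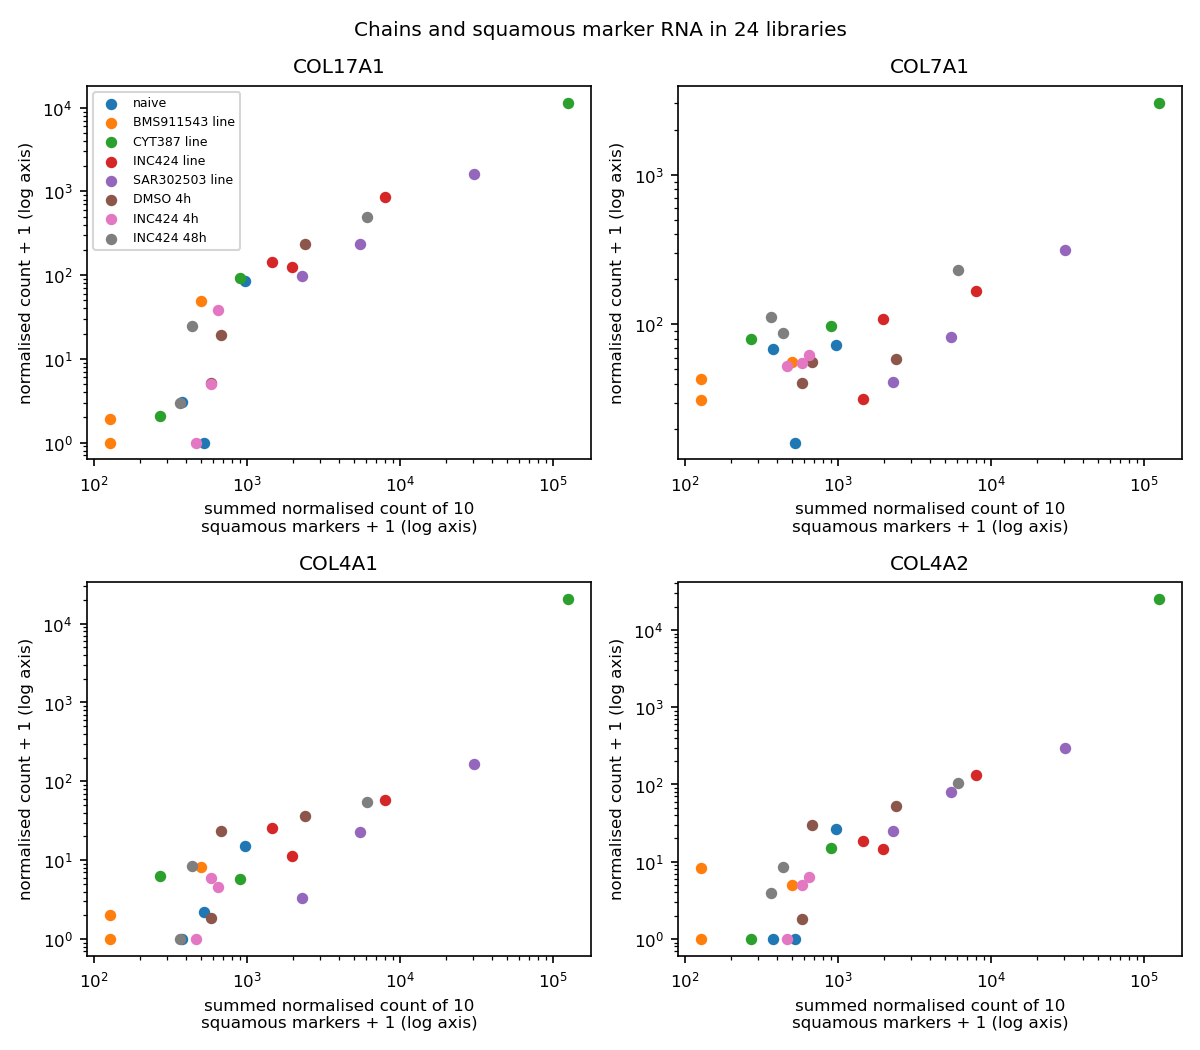
Normalised count + 1 of COL17A1, COL7A1, COL4A1 and COL4A2 (vertical, log axis) against the summed normalised count + 1 of 10 squamous markers (horizontal, log axis) in the 24 libraries, coloured by group. CYT387 replicate 2 lies at the upper right, with a squamous sum of 126176, and SAR302503 line replicate 3, at 30425, is next along the horizontal axis.

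The short exposures compared INC424 with DMSO in cells that had not been grown on in the drug. After 4 h, 3 chains rose against DMSO (9.68%, against 9.39% of all genes) and 0 fell (against 6.52%). By limma, 0 chains fell at an unadjusted p under 0.05 as well, edgeR called 0 lower and DESeq2 called 1. The 3 were COL23A1, to 833, 909 and 772 from 469, 623 and 705 (log2 difference 0.50, adjusted p = 0.049), COL20A1, to 32.5, 27.1 and 14.0 from 13.8, 6.57 and 6.33 (1.37, adjusted p = 0.018), and COL25A1, to 2151, 2212 and 2524 from 1808, 1705 and 1764 (0.38, adjusted p = 0.0082). None of the 3 calls held with all 24 libraries, where 8.06% of all genes were called in either direction, against 15.9% in the main fit. Leaving out 1 library lost the call of COL23A1 in 5 of 6 cases (all but DMSO replicate 3), of COL20A1 in 4 (DMSO replicates 2 and 3, INC424 4 h replicates 1 and 2) and of COL25A1 in 1 (INC424 4 h replicate 3).

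After 48 h, 16 chains were above DMSO (51.6%, against 22.3% of all genes) and 0 below (against 20.7%), and 0 chains fell at an unadjusted p under 0.05 or by edgeR or DESeq2. The median log2 difference was 0.94 for the 31 chains and 0.00 for all genes. With all 24 libraries 10 chains rose, and without the 3 libraries highest in squamous RNA 13 did. Of all genes, 33.2% and 43.2% were called in either direction at those settings, against 43.1% in the main fit. Against INC424 at 4 h, 12 rose (38.7%, against 12.3%) and 0 fell (against 12.2%), again with 0 at an unadjusted p under 0.05 and 0 by edgeR or DESeq2, and the count was 5 with all 24 libraries and 11 without the 3. The share of all genes called in either direction was 24.5% in the main fit, 14.3% with all 24 libraries and 25% without the 3. Cells with vehicle were sampled at 4 h only, so exposure and time in culture cannot be told apart.

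COL18A1, the most abundant chain, was 8411, 9706 and 11640 with DMSO, 14502, 14161 and 10698 with INC424 at 4 h and 23486, 23986 and 23284 at 48 h. It rose 2.38-fold over DMSO at 48 h (log2 difference 1.26, SE 0.18, adjusted p = 3.8e-06), whereas in the INC424 line it was 9213 ± 1538 (n = 3). COL9A2 was 130, 185 and 193 with DMSO, 235, 223 and 188 at 4 h and 928, 1116 and 1055 at 48 h, a 6.10-fold rise (2.62, SE 0.21, adjusted p = 7.2e-10). The 48 h libraries of both chains lay above all libraries of DMSO and of 4 h.

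COL20A1 was 260, 258 and 244 at 48 h, 28.5 times the DMSO mean (log2 difference 4.77, SE 0.39, adjusted p = 1.2e-09). COL12A1 was 233, 248 and 276 against 64.3, 50.1 and 67.2 (2.05, SE 0.34, adjusted p = 3.5e-05), and COL25A1 was 3107, 3511 and 3298 (0.91, SE 0.10, adjusted p = 7.5e-08). COL6A6 was 684, 777 and 811 against 287, 291 and 234 (1.49, SE 0.18, adjusted p = 5.7e-07), and COL14A1 48.8, 58.2 and 62.1 against 15.5, 11.5 and 28.5 (1.65, SE 0.36, adjusted p = 0.00075). COL5A2 was 117, 120 and 184 against 21.2, 34.5 and 30.8 (2.24, SE 0.45, adjusted p = 0.00025). The 48 h libraries of these 6 chains did not overlap with those of DMSO, and each was also called against INC424 at 4 h. COL4A5 was 338, 311 and 423 against 139, 166 and 123 (1.32, SE 0.26, adjusted p = 0.00028).

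COL4A4, a type IV chain of the glomerulus, rose from 0.814, 2.46 and 3.16 with DMSO to 14.1, 19.4 and 56.1 at 48 h (log2 difference 3.13, SE 0.66, adjusted p = 0.00047), and COL23A1 from 469, 623 and 705 to 1275, 1155 and 1364 (1.09, adjusted p = 1.6e-05). Weaker rises at 48 h were those of COL9A3 (0.78, adjusted p = 0.016), COL6A1 (1.43, adjusted p = 0.019), COL4A6 (1.77, adjusted p = 0.028), COL3A1 (1.31, adjusted p = 0.041) and COL6A2 (0.94, adjusted p = 0.046). Each of these 5 calls was lost on leaving out 1 library, COL9A3 only without INC424 48 h replicate 1. COL6A1 and COL4A6 were lost without DMSO replicate 2 or 3 and without INC424 48 h replicate 3, and COL6A1 also without replicate 2 of that group. COL3A1 was lost without any 1 DMSO library or INC424 48 h replicate 2 or 3, and COL6A2, whose groups overlapped, without any library but DMSO replicate 3. Without the 3 libraries highest in squamous RNA the adjusted p was 0.089 for COL4A6, 0.14 for COL3A1 and 0.065 for COL6A2. The summed squamous markers were 580 to 2398 with DMSO and 366 to 6110 at 48 h.

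**Figure D5:**
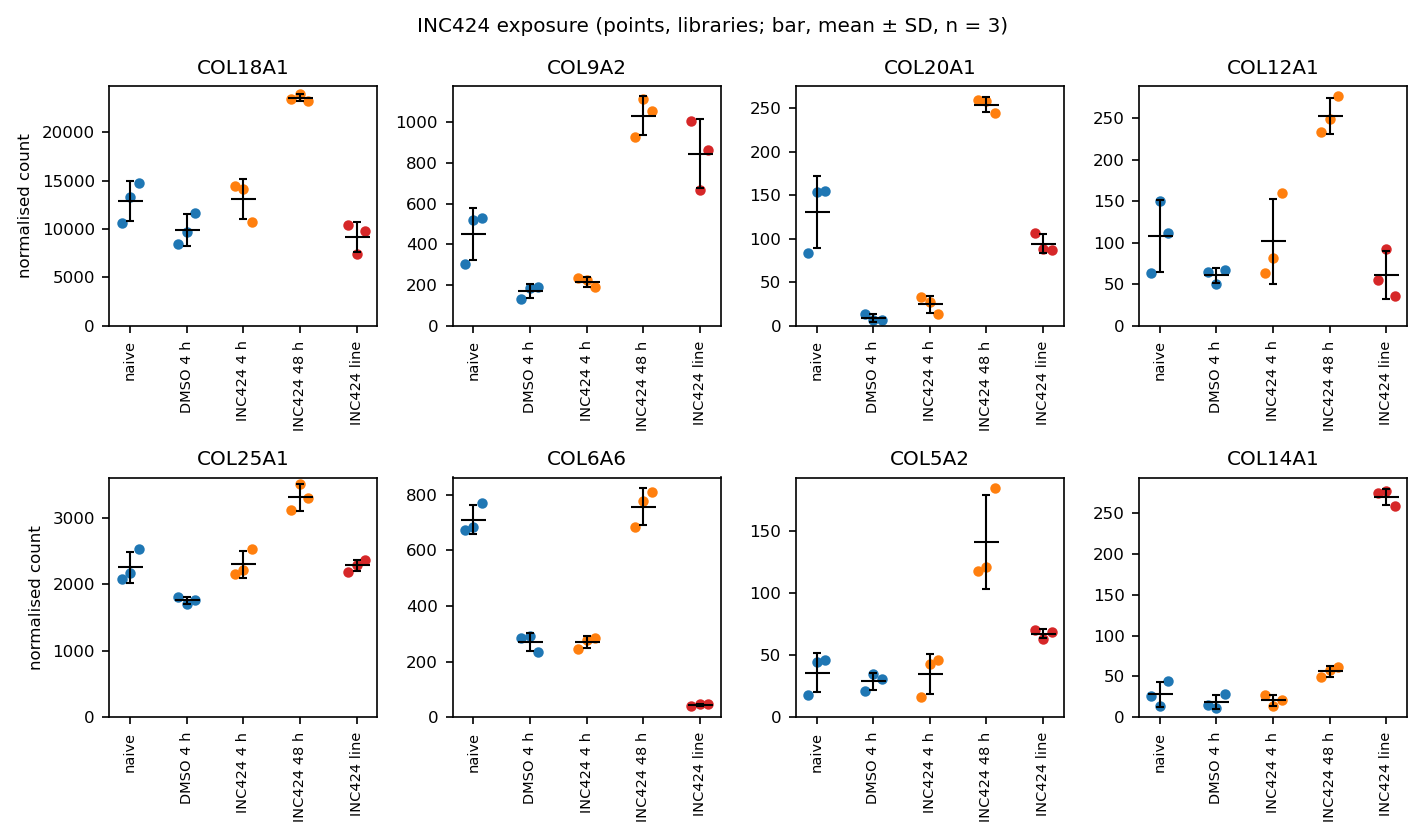
Normalised counts of 8 chains in naive cells, DMSO 4 h, INC424 4 h, INC424 48 h and the INC424 persistent line (points are libraries, bars mean ± SD, n = 3). COL18A1 and COL9A2 are highest at 48 h, with means of 23585 and 1033, and COL14A1 is highest in the persistent line, with a mean of 270.

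Against naive cells, the DMSO libraries themselves differed: 2 chains were higher (6.45%, against 16.8% of all genes) and 8 lower (25.8%, against 19.7%). The counts were 1 and 5 with all 24 libraries and 3 and 9 without the 3 libraries highest in squamous RNA. Of all genes, 25.3% and 41.3% were called in either direction at those settings, against 36.5% in the main fit. COL20A1 was 8.91 with DMSO against 131 in naive cells (log2 difference -3.76, SE 0.39, adjusted p = 8.1e-08), and at 48 h it was 254. COL6A2 was 28.9 against 174 (-2.68, SE 0.37, adjusted p = 5.1e-06), COL9A2 169 against 452 (-1.39, SE 0.21, adjusted p = 1.5e-05) and COL6A6 270 against 711 (-1.40, SE 0.18, adjusted p = 2.2e-06). COL4A5 was 143 against 40.8 (1.81, SE 0.26, adjusted p = 1e-05). The comparison of DMSO with naive cells and those of INC424 with DMSO share the DMSO libraries, so a chain low with DMSO gives a fall in the first and a rise in the others. COL6A6 illustrates this, at 711 ± 53.4 in naive cells, 270 ± 31.6 with DMSO and 757 ± 66.1 at 48 h (n = 3 each). Some chains exceeded every naive library at 48 h, among them COL18A1, COL12A1, COL25A1 and COL23A1. So did COL20A1, at 244 to 260, and COL9A2, at 928 to 1116, which were low with DMSO.

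Genes that handle collagen were taken from 4 lists drawn up by function, and each count below is given with its share of the list. Of all genes tested, 15.6% rose and 18.8% fell in the BMS911543 line, 9.53% and 8.52% in the CYT387 line, 15.3% and 17.0% in the INC424 line and 14.1% and 15.6% in the SAR302503 line, and the median log2 difference of all genes lay between -0.01 and 0.03. Of 18 tested folding and modification enzymes, 1 rose (5.56%) and 10 fell (55.6%) in the BMS911543 line, 4 rose (22.2%) and 1 fell (5.56%) in the CYT387 line, 6 rose (33.3%) and 5 fell (27.8%) in the INC424 line, and 4 rose (22.2%) and 5 fell (27.8%) in the SAR302503 line. Their median log2 differences were -0.49, 0.23, -0.04 and -0.07 in that order. P4HA1, the main catalytic subunit of prolyl 4-hydroxylase, fell from 3482 to 997 in the INC424 line (log2 difference -1.79) and to 1861 in the BMS911543 line. P4HA2, a second catalytic subunit, fell from 98.4 to 25.3 in the SAR302503 line and to 32.6 in the BMS911543 line. LEPREL2, a prolyl 3-hydroxylase now called P3H3, fell from 1243 to 502 in the BMS911543 line, 609 in the INC424 line and 598 in the SAR302503 line. GLT25D2, a collagen galactosyltransferase now called COLGALT2, fell from 2648 to 1126 in the BMS911543 line and rose to 3402 in the CYT387 line and 3996 in the INC424 line. FKBP10, a collagen chaperone of the endoplasmic reticulum, rose from 3821 to 8194 in the CYT387 line (1.15) and 5919 in the INC424 line and fell to 2473 in the BMS911543 line. LEPREL1, another prolyl 3-hydroxylase, rose from 6.27 to 121 in the INC424 line (log2 difference 4.34, SE 1.55, adjusted p = 0.034), a call lost in 9 of 20 alternatives, among them those without each of the 3 libraries of that line, without naive replicate 1 or 3 or without the 3 libraries highest in squamous RNA (adjusted p = 0.085). The fall of P4HA2 in the BMS911543 line and the rise of GLT25D2 in the CYT387 line were lost with all 24 libraries, as was that of LEPREL1. The call of P4HA2 in the BMS911543 line was also lost without replicate 2 of that line or of naive cells, that of GLT25D2 in the CYT387 line without any 1 library of either group and that of FKBP10 in the BMS911543 line without naive replicate 3. With the compared groups alone the falls of P4HA2 in the SAR302503 line and of FKBP10 in the BMS911543 line were lost. In the 4 h exposure 4 rose (22.2%, against 9.39% of all genes) and 0 fell (against 6.52%), and by limma 0 fell at an unadjusted p under 0.05, as by edgeR and DESeq2. After 48 h 5 rose (27.8%, against 22.3%) and 1 fell (5.56%, against 20.7%) against DMSO. With DMSO against naive cells 2 rose (11.1%, against 16.8% of all genes) and 10 fell (55.6%, against 19.7%). P4HA1, P4HA2 and GLT25D2 were among those called there.

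Of 10 tested trimming and cross-linking enzymes, 0 rose and 6 fell (60.0%) in the BMS911543 line, 1 rose and 1 fell (10% each) in the CYT387 line, 0 rose and 6 fell (60.0%) in the INC424 line, and 0 rose and 4 fell (40.0%) in the SAR302503 line, beside the shares of all genes given above. In the 3 lines with no rise by limma, 0 of these genes rose at an unadjusted p under 0.05 and 0 by edgeR or DESeq2. Their median log2 differences were -0.60, -0.13, -0.76 and -0.22. LOXL2, a lysyl oxidase that cross-links type IV collagen, was 1968 in naive cells and fell in all 4 lines, to 28.9 in the BMS911543 line, 317 in the CYT387 line, 30.6 in the INC424 line and 488 in the SAR302503 line. It was also lower with DMSO, at 130, and rose to 542 with INC424 at 4 h and 741 at 48 h. Its relative LOXL4 fell from 76.1 to 15.8, 6.54 and 27.2 in the BMS911543, INC424 and SAR302503 lines, the last a call lost with all 24 libraries. LOXL3, another of these oxidases, fell from 1548 to 1000 in the BMS911543 line and 776 in the INC424 line and rose to 2283 in the CYT387 line, where the call was lost without replicate 1 or 3 of that line. Both the fall of LOXL3 in the BMS911543 line and its rise were lost with all 24 libraries. ADAMTS14, which removes the amino-terminal propeptide, fell from 7454 to 460 in the BMS911543 line, 315 in the INC424 line and 3150 in the SAR302503 line. ADAMTS3, a protease of the same kind, fell from 2204 to 1089 in the BMS911543 line and 682 in the INC424 line. BMP1, which removes the carboxy-terminal propeptide, fell from 1927 to 1350, 1379 and 1402 in the BMS911543, INC424 and SAR302503 lines, and in the last the call was lost without replicate 2 of that line and with the compared groups alone. With DMSO against naive cells 0 of these enzymes rose (against 16.8% of all genes). LOXL2, LOXL4 and ADAMTS14, 3 in all (30.0%, against 19.7%), fell there. By limma 0 rose at an unadjusted p under 0.05, as by edgeR and DESeq2.

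Of 10 tested receptors, 1 rose (10%) and 5 fell (50%) in the BMS911543 line, 3 rose and 3 fell (30.0% each) in the CYT387 line, 2 rose (20.0%) and 4 fell (40.0%) in the INC424 line, and 1 rose (10%) and 5 fell (50%) in the SAR302503 line, with median log2 differences of -0.93, 0.13, -0.06 and -0.33. ITGA2, the collagen-binding integrin subunit of platelets, rose in all 4, from 83.3 to 264, 501, 188 and 170 in the same order. In the SAR302503 line the call was lost with all 24 libraries (adjusted p = 0.073), with the compared groups alone and without replicate 2 of that line. LAIR1, an inhibitory receptor for collagen on blood cells, fell in all 4, from 4352 to 527, 1131, 201 and 469. OSCAR, an activating receptor for collagen on myeloid cells, fell in all 4, from 1350 to 196, 822, 256 and 329. MRC2, which takes up collagen for breakdown, also fell in all 4 lines, from 6612 to 674, 4135, 720 and 2121. In the CYT387 line the fall of MRC2 was lost without replicate 1 or 3 of that line and that of OSCAR without replicate 3. GP6, the platelet activating receptor for collagen, rose from 529 to 1430 in the CYT387 line (log2 difference 1.44) and fell in the other 3, to between 294 and 339, of which the fall in the SAR302503 line was lost with the compared groups alone. ITGA10, a collagen-binding integrin subunit of cartilage, rose from 45.7 to 140 in the CYT387 line (1.75) and 102 in the INC424 line (1.28). Both calls of ITGA10 were lost with all 24 libraries, where the log2 difference in the CYT387 line was -0.62 (adjusted p = 0.71), and with the compared groups alone. They were also lost without replicate 1 of the line concerned and, in the INC424 line, without naive replicate 1. Receptors also differed with DMSO against naive cells, where 2 rose (20.0%, against 16.8% of all genes) and 5 fell (50%, against 19.7%). LAIR1, OSCAR, MRC2, GP6 and ITGA10 were among those called there. The DMSO means of LAIR1 (978), OSCAR (390) and MRC2 (3947) lay below naive cells. Those of GP6 (1266) and ITGA10 (106) lay above. That call of ITGA10 was lost with all 24 libraries, with the compared groups alone and without naive replicate 1.

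Of 9 tested breakdown genes, which include proteases and their inhibitors, 0 rose and 5 fell (55.6%) in the BMS911543 line, 4 rose (44.4%) and 0 fell in the CYT387 line, 2 rose (22.2%) and 1 fell (11.1%) in the INC424 line, and 1 rose and 1 fell (11.1% each) in the SAR302503 line, with median log2 differences of -0.60, 0.80, 0.17 and -0.09. The 0 rises in the BMS911543 line and the 0 falls in the CYT387 line were also 0 at an unadjusted p under 0.05 by limma, and 0 by edgeR and DESeq2. MMP2, a gelatinase, rose from 426 to 1595 in the CYT387 line and fell to 265 in the BMS911543 line. MMP14, which cleaves fibrillar collagen at the cell surface, fell from 5658 to 3726 in the BMS911543 line and 3715 in the INC424 line. It rose to 7338 in the CYT387 line (log2 difference 0.38, limma adjusted p = 0.024). That call was lost in 4 of 19 alternatives, namely the compared groups alone and the fits without CYT387 replicate 1, CYT387 replicate 3 or naive replicate 1. CTSL1, a lysosomal protease, rose from 1134 to 2438 in the CYT387 line (1.12). Among the inhibitors, TIMP1 fell from 3734 to 2119 in the BMS911543 line. TIMP3, an inhibitor bound to the matrix, fell in the BMS911543 line (-1.25) and the SAR302503 line (-1.44), rose in the CYT387 line (0.57), and was 41226 with DMSO against 22940 at 4 h and 9398 at 48 h of INC424. TIMP2 rose from 8.04 to 56.0 in the SAR302503 line (log2 difference 2.95, SE 1.07, adjusted p = 0.041), a call that edgeR and DESeq2 did not make and that was lost in 11 of 20 alternatives, among them those without each library of that line or without naive replicate 1 or 2. The rise of TIMP3 in the CYT387 line and that of TIMP2 were lost with all 24 libraries. With DMSO against naive cells 1 breakdown gene rose (11.1%, against 16.8% of all genes) and 2 fell (22.2%, against 19.7%). TIMP3, CTSL1 and MMP14 were the genes called there.

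The 9 symbols that fell short of the rule reached 10 in at most 1 of the 23 libraries. Of these, COL6A3 (2212), COL8A1 (313), COL28A1 (145), COL22A1 (136), COL13A1 (107) and COL4A3 (36.9) exceeded 10 in CYT387 replicate 2. COL9A1, COL10A1 and COL21A1 were under 10 there, with highest values elsewhere of 29.6 and 13.0, both in CYT387 replicate 1, and 8.72. Just inside the rule were COL19A1 and COL5A1, with 2 libraries at 10 or more, and COL1A2 with 3, and just outside, with 1 library each, were COL6A3 (10.3), COL28A1 (11.4), COL10A1 and COL9A1. In CYT387 replicate 2, 21 of the 34 members had their highest value of the 24 libraries.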

How the data were processed

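The labels' protocols describe Ion Proton sequencing of poly(A) RNA from SET2, amplified over 16 PCR cycles, in 24 libraries that form 8 groups of 3. For 9 of them the labels note a repeat run or a second lane. The authors deposited a normalised signal, gene counts divided by a size factor, and the submitters' processing notes name BWA 0.7.5.1, HTSeq 0.5.3p3, DESeq 1.10.1 and the hg19 build. The strand setting is not given in the sources used here. Whole reads were recovered from the steps of the values (100% whole within 0.01), which gave the depths stated above and served edgeR 4.0.16 and DESeq2 1.42.0 as alternatives. The main test was limma 3.58.1 in R 4.3.3 on log2(value + 1) over 20647 genes with at least 10 in 2 or more of 23 libraries, with 8 group means, a variance trend, 15 residual degrees of freedom and two-sided p-values adjusted by Benjamini-Hochberg within each comparison at a threshold of 0.05. CYT387 persistent replicate 2 was left out for its stromal and squamous RNA. A design was kept without a replicate block, since the deviations of libraries with the same replicate number were little correlated. Alternatives were all 24 libraries, 3 further libraries left out, pseudocounts of 0.5 and 10, other filters and scalings, no variance trend, a replicate block, a run-again term, the compared groups alone and each replicate left out.

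Every member could be named, with library values for those with a group mean of at least 50 or a call against naive cells, and up to 6 genes were named from each list of collagen-handling genes, those with the largest change past the threshold against naive cells in any line and a group mean of at least 50 in that comparison. The members, lists, markers and libraries left out were chosen with earlier results of these data known. Counting intervals are 95% and cover counting error only, and the floor was 3 reads over a group. Levels per kb used exon lengths of GENCODE v29. The limma, edgeR and DESeq2 steps were tested on simulated data.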

Additional observations from a re-analysis of the deposited data

Results flagged for a closer look

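Some chains moved in opposite directions in 2 persistent lines, and the lines themselves differed by the limma test. COL20A1, above naive in the BMS911543 line (log2 difference 4.13) and below it in the SAR302503 line (-4.82), differed by 8.95 between them. COL4A5, below naive in the BMS911543 line (-1.56) and above it in the other 3, differed by -6.39 between the BMS911543 and CYT387 lines, -5.71 between the BMS911543 and INC424 lines and -3.09 between the BMS911543 and SAR302503 lines. COL2A1, below naive in the BMS911543 and INC424 lines and above it in the CYT387 and SAR302503 lines, differed by -2.53 (BMS911543 less CYT387), -1.28 (BMS911543 less SAR302503), 2.26 (CYT387 less INC424) and -1.01 (INC424 less SAR302503). COL25A1 differed by -2.50 between the BMS911543 and CYT387 lines and by 2.95 between the CYT387 and SAR302503 lines. COL8A2 differed by -3.26 between the INC424 and SAR302503 lines.

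CYT387 persistent replicate 2, a library outside the comparisons, held a summed count of 126603 for the 34 chains, against 25933 ± 382 (SD, n = 2) in the other libraries of that line.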

How the results depend on the processing

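The 8 comparisons gave 88 calls for the 31 chains, of which 49 held under every alternative run, 39 were lost under at least 1 and 0 reversed. Putting CYT387 replicate 2 back lost 32 calls, fitting the compared groups alone 15, leaving out the 3 further libraries 11, no variance trend 7, DESeq2 5 and edgeR 4, and a filter at 50 lost 0 of the 84 it could test. With all 24 libraries the chains called numbered 11 in place of 17 for the SAR302503 line, 0 in place of 3 for INC424 at 4 h against DMSO, 10 in place of 16 for 48 h against DMSO, 5 in place of 12 for 48 h against 4 h and 6 in place of 10 for DMSO against naive cells. The share of all genes called was also lower in each of these comparisons, as given above. At 4 h with all 24 libraries, 2 chains had an unadjusted p under 0.05 by limma, and on the 23 libraries edgeR called 2 and DESeq2 4. Fitting the 2 groups alone gave 8 for the SAR302503 line. Leaving out 1 replicate gave 4 to 6 calls for the CYT387 line (7 with all, and a lone library is then assumed to vary like the other groups) and 1 to 3 for INC424 at 4 h. With the replicate block the counts were 11, 6, 14 and 18 for the BMS911543, CYT387, INC424 and SAR302503 lines, 3 and 16 for 4 h and 48 h against DMSO, 12 for 48 h against 4 h, 10 for DMSO against naive and 24 for any pair of lines, and COL6A1 in the CYT387 line was the only call lost. The deviations of same-numbered libraries were little correlated, from -0.158 to 0.166 over 23 pairs. Whether such libraries shared a culture or a preparation was not tested. Of all genes, the calls for the CYT387 line were 3726, against 2425 with its groups alone and 2007 or 2106 without its replicate 1 or 3, those for the SAR302503 line 6129, against 3896 with all 24 libraries and 2294 with its groups alone, and with all 24 libraries those for 4 h against DMSO went from 3285 to 1665 and for 48 h against 4 h from 5052 to 2949. Of 108 calls for the 24 genes named from the lists, 79 held under every alternative run, 29 were lost under at least 1, and ITGA10 in the CYT387 line, reversed with all 24 libraries (-0.62), was among those 29. Depth limits the chains with few reads: fold changes of COL3A1, COL4A6, COL5A3 and COL27A1 rest on small counts.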
